A study of Mus musculus with 18 samples.

Results

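The 35 genes described here are interferon-stimulated genes outside the IFIT, OAS, GBP, IRG, IFI200, IRF and STAT families, given as a list of mouse symbols. Each symbol matched 1 row of the deposited count table, so 35 of its 45706 rows are described, and all 35 passed the filter on low counts among 11308 genes tested. The study measured poly(A) RNA in bone marrow-derived macrophages of the C57BL/6 strain, grown from marrow in medium with 30% L929-conditioned medium and stimulated on day 7. Wild-type (WT) cells were set beside RelA-TA-KI cells, a knock-in at RelA, an activating subunit of the transcription factor NF-kB. The labels give the age of both genotypes as 12 days and do not describe the altered allele further. Cells of each genotype were left unstimulated, or received LPS (100 ng/ml), a bacterial ligand of the receptor TLR4, or TNF (10 ng/ml), a cytokine, for 0.5, 1, 3 or 8 h. That makes 9 conditions per genotype and 18 libraries, 1 for each genotype and condition.

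Macrophages that sense LPS through TLR4 signal along one arm to NF-kB and along another, through the adaptor TRIF, to the factor IRF3, and both feed the gene of interferon beta. Secreted interferon beta binds the receptor IFNAR, and the kinases JAK1 and TYK2 then activate the transcription factor complex ISGF3, of which IRF9 is a subunit. ISGF3 binds the interferon-stimulated response element (ISRE) in the promoters of antiviral genes, and IRF3 can bind the same element directly. The genes described here encode proteins that block viral entry, copying or budding, modify other proteins with ISG15, ubiquitin or ADP-ribose, or build nuclear bodies.

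Libraries held 4663650 to 6721917 counts. Levels are given in CPM, counts per unit of library size as edgeR defines it, scaled by TMM (a correction for differences in library composition), and differences on the log2 scale with their standard error (SE) from edgeR's quasi-likelihood test, adjusted by Benjamini-Hochberg over all 11308 genes. A gene was called at an adjusted p under 0.05. A response is the change from unstimulated cells with both genotypes fitted together, so each condition rests on 2 libraries and the spread comes from how the genotype pairs differ. The LPS and TNF responses share the same unstimulated libraries. Nothing in the labels names separate animals or cultures, so p-values measure only the spread between these libraries. In bulk RNA, fewer cells of a type and less RNA per cell cannot be told apart. Summed levels of 8 macrophage markers were 9020 to 15700 CPM in every library, and 7 lymphocyte markers together stayed at 1.77 CPM or lower. Of 5 plasmacytoid dendritic cell markers Siglech reached 2.95 CPM and Klk1 0.196 CPM at most, and Tcf4, which other cells also express, made up most of that list's sum.

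Promoter sequences are shown first, because the ISRE, searched for in them, is the element that ISGF3 binds. Binding was not measured here. The RefSeq promoter table (GRCm38.p6, 250 bases before to 50 after each start) held 37 promoters of 28 of the 35 genes. Mx1, Mx2, Usp18, Parp9, Parp14, Tor3a and Rtp4 had no promoter in it and were not searched. The ISRE core was searched as GAAANNGAAA on both strands, where N is any base. It was found in 11 of the 28 genes, or 39.3%, and in 3.99% of the 27025 genes in the table. In 8 of the 11 a match lay before the start. The kappa B consensus bound by NF-kB was searched as GGGRNNYYCC on both strands, where R is A or G and Y is C or T. It was found in 5 of the 28 genes, or 17.9%, beside 9.55% of all genes in the table. Shorter or looser forms of either motif were not searched. No test is given for these shares, and a match is only a description of the letters. The 6 genes below had a match before the start and the largest LPS response at 3 h among the 8. A match did not go with a large response throughout. The rest of the 8, Bst2 and Lgals9, had log2 changes of 1.42 and 1.26 at 3 h of LPS, and that of Lgals9 was the smallest of the 35. Cmpk2, which rose nearly as much as Rsad2, had no match. Slfn2 is added, chosen after its values were seen, because it was the earliest member to respond and no exact copy of either searched pattern lay in its window. That does not show that it lacks an NF-kB site. Capitals mark the ISRE core on either strand, and each sequence runs 5′ to 3′ on the gene's own strand up to the base before the start.
Rsad2, chr12:26456453-26456592, minus strand: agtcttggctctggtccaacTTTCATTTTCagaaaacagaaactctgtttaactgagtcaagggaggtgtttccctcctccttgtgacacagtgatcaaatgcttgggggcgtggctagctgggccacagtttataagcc
Isg15, chr4:156200819-156200918, minus strand: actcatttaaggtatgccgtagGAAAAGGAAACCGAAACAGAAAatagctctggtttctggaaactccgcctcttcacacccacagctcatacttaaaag
Slfn8, chr11:83020811-83020910, minus strand: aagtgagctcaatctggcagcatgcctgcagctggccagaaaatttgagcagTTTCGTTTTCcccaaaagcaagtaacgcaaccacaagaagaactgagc
Slfn5, chr11:82951922-82952101, plus strand: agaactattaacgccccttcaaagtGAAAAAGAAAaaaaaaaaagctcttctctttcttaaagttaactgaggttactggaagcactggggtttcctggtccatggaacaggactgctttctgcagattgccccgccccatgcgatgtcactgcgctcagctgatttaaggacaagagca
Trim30a, chr7:104465194-104465293, minus strand: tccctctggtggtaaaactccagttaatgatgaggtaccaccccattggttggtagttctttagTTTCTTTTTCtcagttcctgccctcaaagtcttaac
Tdrd7, chr4:45972077-45972296, plus strand: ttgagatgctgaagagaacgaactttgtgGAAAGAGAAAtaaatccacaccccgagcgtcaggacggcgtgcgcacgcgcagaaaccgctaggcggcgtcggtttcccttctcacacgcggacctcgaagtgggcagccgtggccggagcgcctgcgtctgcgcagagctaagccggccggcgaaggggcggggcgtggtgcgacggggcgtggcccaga
Slfn2, chr11:83065012-83065111, plus strand: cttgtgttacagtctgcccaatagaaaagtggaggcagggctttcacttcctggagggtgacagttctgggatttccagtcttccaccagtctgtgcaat
In Isg15 the 3 matches overlap and form 1 run, whereas the other 5 genes with capitals hold 1 match each in the stretch shown. The kappa B consensus was found in Isg20, Slfn1, Rnf213, Ifitm3 and Bst2, and 2 of these, Ifitm3 and Bst2, also held the ISRE core.

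**Figure D1:**
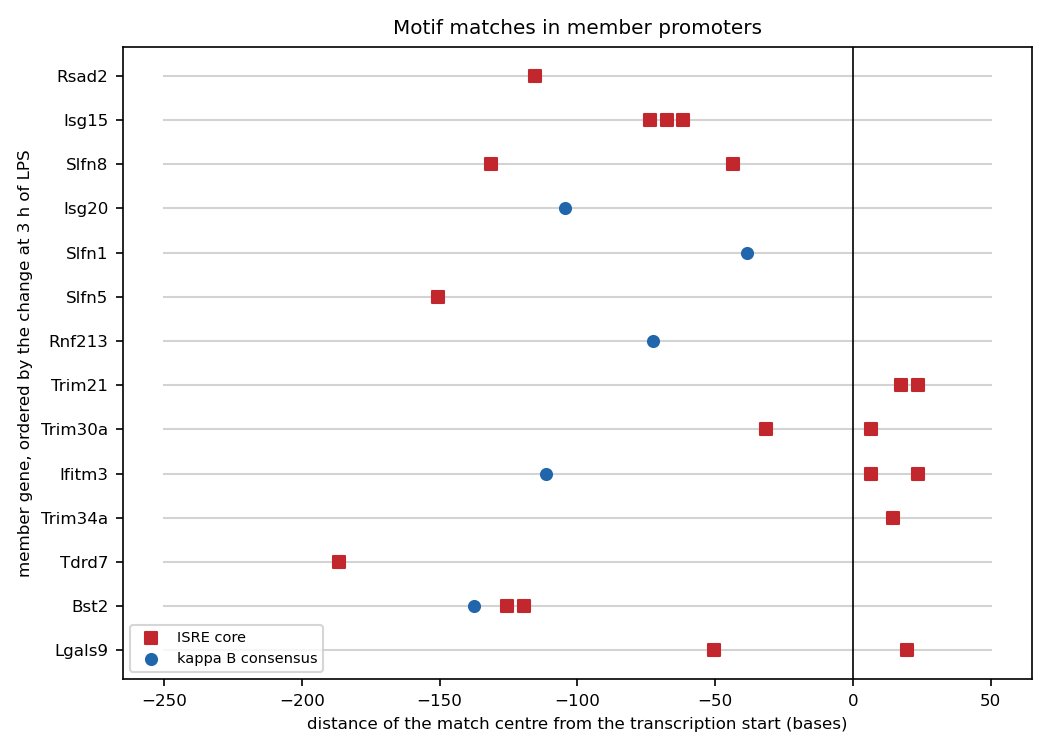
Positions of ISRE core matches (red squares) and kappa B consensus matches (blue circles) in the promoters of the members that hold one, ordered from top to bottom by their log2 change at 3 h of LPS; the x axis is the distance of the match centre from the transcription start in bases. Each grey line is a window of 250 bases before to 50 after a start, and the matches of all listed starts of a gene are drawn on 1 line, so the 2 squares of Slfn8 are 1 element seen from 2 starts.

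All 35 genes rose with LPS at 3 h and again stood above unstimulated cells at 8 h, and all 35 rose with TNF at 8 h. Ifi44 and Slfn1 passed the low-count filter only through libraries in which they were high, so their rises are not independent of it. At 3 h of LPS the median log2 change over the 35 was 4.06, from 1.26 for Lgals9 to 9.19 for Rsad2, and the background was 24.8% of all tested genes called higher with a median change of -0.02. At 8 h of LPS the median was 4.94 and the background 33.8%. At 8 h of TNF the median was 3.21, from 0.94 for Lgals9 to 6.61 for Rsad2, with a background of 17.1%. The members took 0.197% of all counts in unstimulated wild-type cells and 6.55% at 8 h of LPS, and 0.233% and 6.98% in RelA-TA-KI cells. Rsad2 alone took 2.66% and 2.79% of all counts at 8 h of LPS. At 8 h of TNF the members took 1.90% of counts in wild-type and 1.80% in RelA-TA-KI cells. Scaling by library totals in place of TMM moved the median of all tested genes by -0.53 at 3 h of LPS, -0.95 at 8 h of LPS and -0.25 at 8 h of TNF. The share of higher among all calls then went from 52.2% to 17.3%, from 50.0% to 18.5% and from 53.6% to 24.8%. All 35 members were called higher at these 3 points with either scaling.

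**Figure D2:**
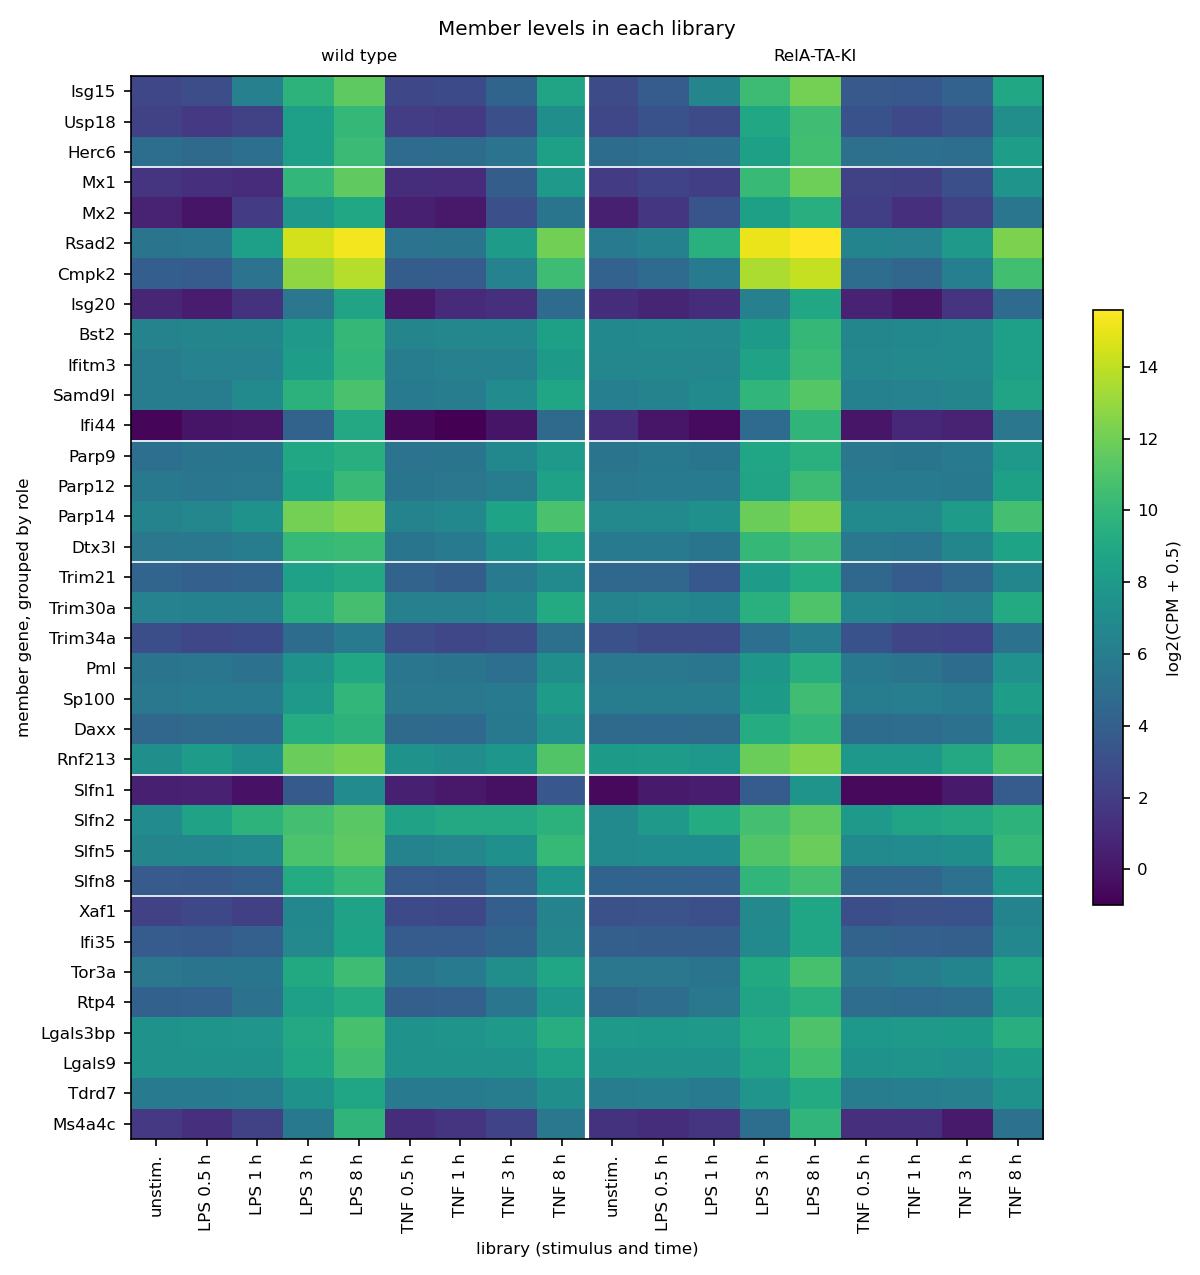
Level of each of the 35 members in each of the 18 libraries, as log2(CPM + 0.5) in colour; rows are grouped by role with white lines between groups, and columns run by genotype, stimulus and time. Most colours change little up to 1 h, where the largest changes with LPS are those of Isg15, Rsad2, Mx2 and Slfn2, and they brighten in the LPS columns at 3 and 8 h and the TNF columns at 8 h.

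**Figure D3:**
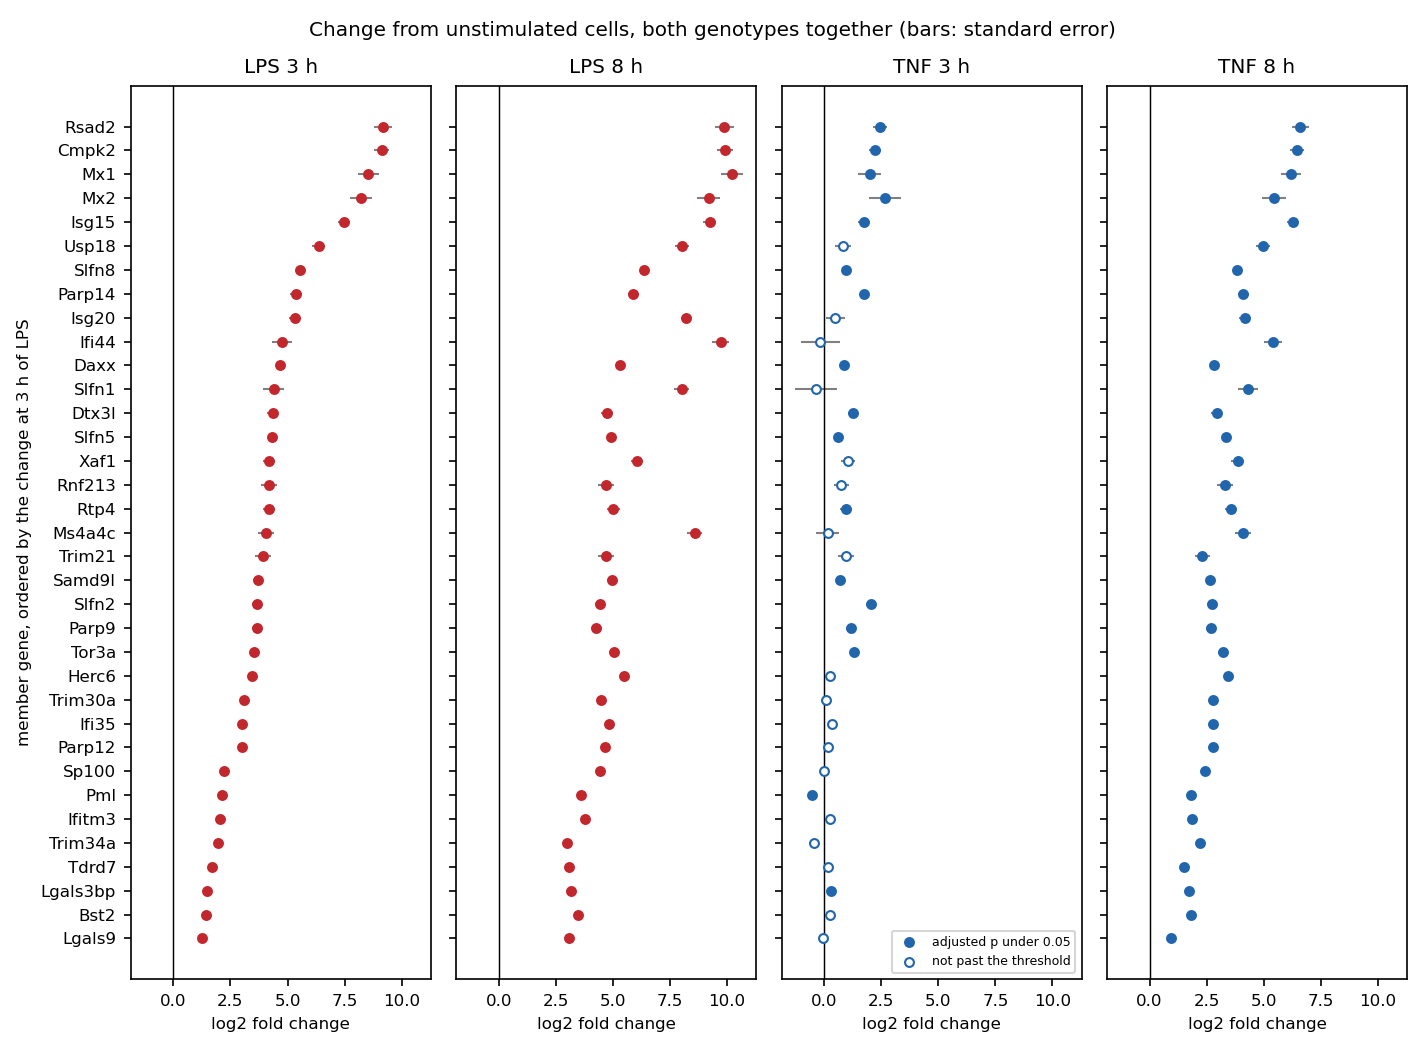
Log2 fold change from unstimulated cells for the 35 members at 3 and 8 h of LPS (red) and of TNF (blue), with both genotypes fitted together and bars for the standard error; filled points passed an adjusted p under 0.05. All points are filled at 3 and 8 h of LPS and at 8 h of TNF, while at 3 h of TNF 16 are filled above 0 and 1, Pml, below it.

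Of the 3 genes of the ISG15 system, Isg15 and Usp18 changed by more than the members' median of 4.06 at 3 h of LPS, and Herc6 by less. Isg15 encodes a ubiquitin-like protein that is joined to other proteins and also secreted. Its row covers chr4:156199424-156200818 (mm10), next to the promoter shown above. Isg15 stood at 5.20, 6.94, 73.6, 829 and 2822 CPM in wild-type and 6.45, 13.6, 95.1, 1309 and 4403 CPM in RelA-TA-KI cells at 0, 0.5, 1, 3 and 8 h of LPS. It stood at 5.59, 5.97, 20.2 and 412 CPM in wild-type and 11.7, 11.3, 17.7 and 486 CPM in RelA-TA-KI cells at 0.5, 1, 3 and 8 h of TNF. Both genotypes passed 70 CPM at 1 h of LPS and stayed near 20 CPM or lower up to 3 h of TNF, and the RelA-TA-KI library was the higher one at every LPS time. The change was 7.48 (SE 0.27, adjusted p = 1.12e-09) at 3 h of LPS and 6.27 (SE 0.26, adjusted p = 1.18e-08) at 8 h of TNF. Usp18, the protease that removes ISG15 and restrains IFNAR signalling, stood at 4.21, 2.87, 4.42, 323 and 1078 CPM in wild-type and 5.38, 8.42, 6.46, 477 and 1439 CPM in RelA-TA-KI cells at 0, 0.5, 1, 3 and 8 h of LPS. It stood at 3.53, 2.98, 7.84 and 154 CPM in wild-type and 8.66, 5.83, 8.96 and 143 CPM in RelA-TA-KI cells at 0.5, 1, 3 and 8 h of TNF. Usp18 thus stayed under 10 CPM through 1 h of LPS and through 3 h of TNF in both genotypes. Its change was 6.36 (SE 0.30, adjusted p = 1.59e-08) at 3 h of LPS, and at 3 h of TNF it was 0.82 (SE 0.36, adjusted p = 0.169), which did not pass. Herc6, the main ISG15 ligase of the mouse, rose by 3.46 (SE 0.15, adjusted p = 2.62e-09) at 3 h of LPS.

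Among the 9 antiviral effectors Rsad2 and Cmpk2 reached the highest levels. Rsad2 encodes viperin, which turns CTP into a chain terminator of viral RNA synthesis, and Cmpk2 encodes a mitochondrial nucleotide kinase. The genes lie side by side on opposite strands, Rsad2 at chr12:26442753-26456452 and Cmpk2 at chr12:26469204-26479835 (mm10). Rsad2 stood at 41.3, 45.6, 321, 22820 and 40690 CPM in wild-type and 55.8, 77.1, 724, 34740 and 49110 CPM in RelA-TA-KI cells at 0, 0.5, 1, 3 and 8 h of LPS. It stood at 39.4, 40.7, 268 and 4308 CPM in wild-type and 90.9, 83.0, 245 and 5018 CPM in RelA-TA-KI cells at 0.5, 1, 3 and 8 h of TNF. The 3 and 8 h LPS libraries were far above all others in both genotypes, and the 8 h TNF libraries came next. Cmpk2 stood at 15.3, 13.9, 38.8, 7364 and 13790 CPM in wild-type and 17.8, 27.7, 57.7, 11750 and 18240 CPM in RelA-TA-KI cells at 0, 0.5, 1, 3 and 8 h of LPS. It stood at 14.4, 13.6, 82.0 and 1356 CPM in wild-type and 30.2, 22.0, 69.6 and 1534 CPM in RelA-TA-KI cells at 0.5, 1, 3 and 8 h of TNF. Cmpk2 followed the same order of libraries as Rsad2 at 3 and 8 h of both stimuli. At 3 h of LPS the change was 9.19 (SE 0.40, adjusted p = 2.29e-08) for Rsad2 and 9.13 (SE 0.33, adjusted p = 2.79e-09) for Cmpk2. Per kilobase of gene model, at 8 h of LPS the mean level over genotypes was 10370 CPM for Rsad2, 5007 for Cmpk2 and 4779 for Isg15, the highest of the 35. The lowest were 14.5 for Trim34a and 84.8 for Xaf1.

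Mx1 and Mx2, genes of the MX family of GTPases, rose by 8.54 (SE 0.46, adjusted p = 9.47e-08) and 8.22 (SE 0.49, adjusted p = 2.3e-07) at 3 h of LPS. Isg20, an RNA exonuclease, rose by 5.33 (SE 0.25, adjusted p = 3.28e-09), and Samd9l, which restricts poxviruses, by 3.69 (SE 0.19, adjusted p = 8.5e-09). Bst2 encodes tetherin, which holds budding virions at the cell surface, and Ifitm3 a membrane protein that blocks viral fusion. In unstimulated cells these were the highest members per kilobase, at a mean of 125.9 CPM per kilobase for Bst2 and 122.4 for Ifitm3. Their changes at 3 h of LPS were among the smaller ones, 1.42 (SE 0.10, adjusted p = 1.41e-07) and 2.06 (SE 0.12, adjusted p = 1.61e-08). Ifitm3 stood at 64.7, 80.5, 83.0, 302 and 1005 CPM in wild-type and 101, 104, 101, 378 and 1237 CPM in RelA-TA-KI cells at 0, 0.5, 1, 3 and 8 h of LPS. It stood at 65.9, 74.6, 77.8 and 261 CPM in wild-type and 104, 112, 119.6 and 321 CPM in RelA-TA-KI cells at 0.5, 1, 3 and 8 h of TNF. The RelA-TA-KI library was higher than the wild-type one in all 9 conditions. Ifi44, a cytoplasmic protein of the interferon response, stood at 0.124, 0.453, 0.552, 19.2 and 518 CPM in wild-type and 1.79, 0.486, 0.196, 26.8 and 942 CPM in RelA-TA-KI cells at 0, 0.5, 1, 3 and 8 h of LPS. It stood at 0.147, 0, 0.480 and 25.8 CPM in wild-type and 0.510, 1.27, 1.04 and 48.1 CPM in RelA-TA-KI cells at 0.5, 1, 3 and 8 h of TNF. Only the 3 and 8 h LPS libraries and the 8 h TNF libraries exceeded 2 CPM, and the unstimulated values rest on 1 count in wild-type and 10 counts in RelA-TA-KI cells. Between 3 and 8 h of LPS Ifi44 rose by 4.96 (SE 0.25, adjusted p = 3.23e-08).

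The PARP and DTX3L genes encode ADP-ribosyltransferases and a ubiquitin ligase that pairs with PARP9. Parp14, the gene with the highest level per kilobase here, stood at 85.3, 101, 178, 4414 and 5955 CPM in wild-type and 114, 124, 157, 3783 and 5893 CPM in RelA-TA-KI cells at 0, 0.5, 1, 3 and 8 h of LPS. It stood at 84.8, 106, 398 and 1805 CPM in wild-type and 122, 115, 276 and 1602 CPM in RelA-TA-KI cells at 0.5, 1, 3 and 8 h of TNF. RelA-TA-KI values were below wild-type ones at 1, 3 and 8 h of LPS and at 3 and 8 h of TNF, by less than 1 log2 unit in each pair. Parp12, whose product modifies proteins with single ADP-ribose units, stood at 51.0, 44.2, 48.9, 399.7 and 1170 CPM in wild-type and 50.0, 56.2, 57.5, 413 and 1344 CPM in RelA-TA-KI cells at 0, 0.5, 1, 3 and 8 h of LPS. It stood at 43.7, 47.6, 60.8 and 352 CPM in wild-type and 53.2, 56.1, 52.5 and 349 CPM in RelA-TA-KI cells at 0.5, 1, 3 and 8 h of TNF. At 3 h of TNF Parp12 had a change of 0.17 (SE 0.12, adjusted p = 0.418) and did not pass, whereas Parp14 rose by 1.77 (SE 0.21, adjusted p = 0.00036). Parp9 (chr16:35938470-35972605) and Dtx3l (chr16:35926511-35939151) are transcribed away from each other, and their rows overlap at their starts. At 3 h of TNF Parp9 rose by 1.17 (SE 0.22, adjusted p = 0.00422) and Dtx3l by 1.26 (SE 0.23, adjusted p = 0.00439). In all, 7 of the 35 rows overlap another row with counts (Parp9, Dtx3l, Trim34a, Sp100, Slfn5, Ifi35 and Ms4a4c), and their reads could be split or shared.

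The 7 TRIM, nuclear body and RING genes had a median change of 3.09 at 3 h of LPS. Trim30a, a TRIM protein that acts on NF-kB signalling, stood at 81.4, 77.7, 73.6, 684 and 1677 CPM in wild-type and 85.5, 101, 90.4, 736 and 2083 CPM in RelA-TA-KI cells at 0, 0.5, 1, 3 and 8 h of LPS. It stood at 75.1, 73.0, 98.5 and 576 CPM in wild-type and 101, 90.1, 75.6 and 558 CPM in RelA-TA-KI cells at 0.5, 1, 3 and 8 h of TNF. Its TNF libraries were high only at 8 h, and no earlier TNF time passed. Rnf213, a very large ubiquitin ligase, stood at 156, 277, 158, 3607 and 4832 CPM in wild-type and 261, 268, 228, 3749 and 5801 CPM in RelA-TA-KI cells at 0, 0.5, 1, 3 and 8 h of LPS. It stood at 182, 140.5, 207 and 2208 CPM in wild-type and 233, 229.6, 510.5 and 1708 CPM in RelA-TA-KI cells at 0.5, 1, 3 and 8 h of TNF. The genotypes of Rnf213 lay apart in unstimulated cells and in opposite directions at 3 and 8 h of TNF. Its change was 4.19 (SE 0.35, adjusted p = 3.47e-06) at 3 h of LPS and 0.75 (SE 0.31, adjusted p = 0.15) at 3 h of TNF.

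Pml, Sp100 and Daxx encode components of PML nuclear bodies. Pml stood at 41.0, 44.7, 36.6, 179 and 465 CPM in wild-type and 49.5, 49.9, 44.6, 222 and 638 CPM in RelA-TA-KI cells at 0, 0.5, 1, 3 and 8 h of LPS. It stood at 44.7, 40.9, 33.0 and 153 CPM in wild-type and 51.0, 41.3, 28.1 and 165 CPM in RelA-TA-KI cells at 0.5, 1, 3 and 8 h of TNF. At 3 h of TNF both genotypes had their lowest TNF value, and Pml was the 1 member called lower there, at -0.54 (SE 0.14, adjusted p = 0.0174), beside 5.86% of all tested genes called lower. Sp100 stood at 48.7, 53.4, 55.2, 242 and 1010 CPM in wild-type and 62.9, 65.1, 63.0, 265 and 1429 CPM in RelA-TA-KI cells at 0, 0.5, 1, 3 and 8 h of LPS. It stood at 50.5, 50.0, 53.8 and 291 CPM in wild-type and 65.2, 66.8, 55.6 and 299 CPM in RelA-TA-KI cells at 0.5, 1, 3 and 8 h of TNF. Sp100 was not called at 3 h of TNF and was higher in the RelA-TA-KI library in all 9 conditions. Daxx, a histone chaperone, rose by 4.69 (SE 0.15, adjusted p = 2.18e-10) at 3 h of LPS, more than Pml at 2.15 (SE 0.13, adjusted p = 2.32e-08) or Sp100 at 2.19 (SE 0.12, adjusted p = 1.15e-08). The difference between these genes was not tested. Trim21, an antibody receptor in the cytosol with ligase activity, rose by 3.92 (SE 0.34, adjusted p = 4.75e-06) at 3 h of LPS.

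The Schlafen genes, a family that acts on RNA and growth control, include the member called earliest, Slfn2. This gene, which protects tRNA from cleavage in immune cells, lies at chr11:83065112-83070678 (mm10). Slfn2 stood at 130.3, 384, 861, 1584 and 2574 CPM in wild-type and 119, 237, 581, 1600 and 2805 CPM in RelA-TA-KI cells at 0, 0.5, 1, 3 and 8 h of LPS. It stood at 383, 519, 514 and 821 CPM in wild-type and 242, 409.5, 512 and 836 CPM in RelA-TA-KI cells at 0.5, 1, 3 and 8 h of TNF. It was above the unstimulated libraries in every stimulated library. At 0.5 h it was the only member called higher, by 1.30 (SE 0.20, adjusted p = 0.00648) with LPS and 1.31 (SE 0.20, adjusted p = 0.0121) with TNF. The background at 0.5 h was 0.875% of all tested genes with LPS and 0.38% with TNF. Slfn5 stood at 92.9, 99.0, 114, 1875 and 2784 CPM in wild-type and 114, 131, 134, 2195 and 3509 CPM in RelA-TA-KI cells at 0, 0.5, 1, 3 and 8 h of LPS. It stood at 85.8, 103, 158 and 1083 CPM in wild-type and 121, 127, 149.8 and 1033 CPM in RelA-TA-KI cells at 0.5, 1, 3 and 8 h of TNF. Slfn5 was not called at 0.5 or 1 h of either stimulus and was called from 3 h on with both. Slfn8 stood at 13.1, 11.8, 16.0, 594 and 1127 CPM in wild-type and 20.1, 18.6, 17.8, 948 and 1610 CPM in RelA-TA-KI cells at 0, 0.5, 1, 3 and 8 h of LPS. It stood at 13.5, 12.2, 27.7 and 209 CPM in wild-type and 22.6, 21.9, 36.3 and 249.5 CPM in RelA-TA-KI cells at 0.5, 1, 3 and 8 h of TNF. Slfn8 was higher in the RelA-TA-KI library in all 9 conditions. Slfn1 stayed under 1 CPM in all unstimulated, 0.5 h and 1 h libraries and at 3 h of TNF, and reached 126 CPM in wild-type and 195.5 CPM in RelA-TA-KI cells at 8 h of LPS.

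The 8 other genes include Lgals9, the member with the smallest change at 3 h of LPS and at 8 h of TNF. Lgals9 encodes galectin-9, a sugar-binding protein, and stood at 176, 176, 173, 427 and 1445 CPM in wild-type and 177, 185, 174, 417 and 1515 CPM in RelA-TA-KI cells at 0, 0.5, 1, 3 and 8 h of LPS. It stood at 178, 182, 173 and 356 CPM in wild-type and 179, 192, 168 and 320.3 CPM in RelA-TA-KI cells at 0.5, 1, 3 and 8 h of TNF. The genotypes stayed close at each time, and only the 3 and 8 h LPS and the 8 h TNF libraries left the unstimulated level. Lgals3bp, a secreted partner of galectin-3, stood at 175, 190.5, 203, 525 and 1705 CPM in wild-type and 238, 232, 246, 596 and 1969 CPM in RelA-TA-KI cells at 0, 0.5, 1, 3 and 8 h of LPS. It stood at 178, 194, 244 and 655 CPM in wild-type and 232, 243, 261 and 718 CPM in RelA-TA-KI cells at 0.5, 1, 3 and 8 h of TNF. RelA-TA-KI values were the higher ones in all 9 conditions. Rtp4, a chaperone of membrane receptors, stood at 17.3, 18.3, 37.9, 324 and 582 CPM in wild-type and 23.7, 30.3, 48.9, 417 and 739.7 CPM in RelA-TA-KI cells at 0, 0.5, 1, 3 and 8 h of LPS. It stood at 15.4, 16.4, 45.0 and 227 CPM in wild-type and 30.6, 27.9, 31.3 and 255 CPM in RelA-TA-KI cells at 0.5, 1, 3 and 8 h of TNF. The RelA-TA-KI library was higher in 8 of 9 conditions, the exception being 3 h of TNF. Tdrd7, a Tudor domain protein that inhibits autophagy, stood at 57.6, 56.1, 61.8, 185 and 454 CPM in wild-type and 62.2, 67.2, 59.1, 201 and 560.1 CPM in RelA-TA-KI cells at 0, 0.5, 1, 3 and 8 h of LPS. It stood at 59.8, 55.4, 62.6 and 155 CPM in wild-type and 65.7, 69.0, 74.4 and 186 CPM in RelA-TA-KI cells at 0.5, 1, 3 and 8 h of TNF. It was higher in the RelA-TA-KI library in 8 of 9 conditions, all but 1 h of LPS. Xaf1, Ifi35, Tor3a and Ms4a4c rose by 4.19, 3.01, 3.53 and 4.06 on the log2 scale at 3 h of LPS, each called.

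**Figure D4:**
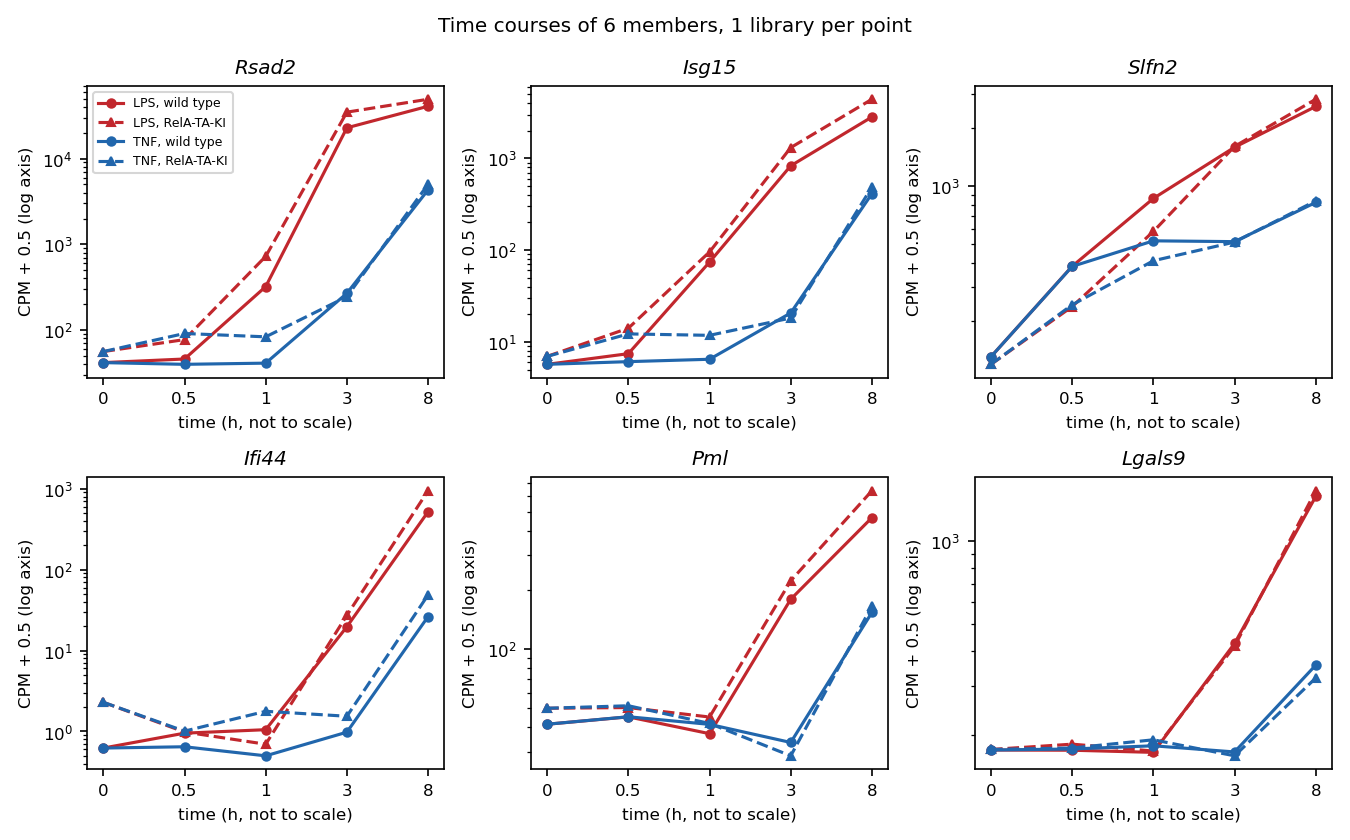
Time courses of Rsad2, Isg15, Slfn2, Ifi44, Pml and Lgals9 as CPM + 0.5 on a log axis against time after LPS (red) or TNF (blue), in wild-type (circles, solid) and RelA-TA-KI cells (triangles, dashed); each point is 1 library and the times on the x axis are evenly spaced. Slfn2 rises at 0.5 h with both stimuli, Rsad2 and Isg15 at 1 h of LPS, Pml dips at 3 h of TNF, and Ifi44 and Lgals9 leave their starting level at 3 h of LPS or later.

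The order in time differed among the members. At 1 h of LPS 6 of 35 were called higher, with 4.25% of all tested genes as background. These were Isg15 at 3.84 (SE 0.25, adjusted p = 1.41e-06), Rsad2 at 3.35 (SE 0.32, adjusted p = 8.04e-05), Slfn2 at 2.52 (SE 0.21, adjusted p = 1.2e-05), Cmpk2 at 1.51, Rtp4 at 1.09 and Samd9l at 0.81. Mx2 and Parp14 had changes of 2.61 (adjusted p = 0.0589) and 0.76 (adjusted p = 0.0539) at 1 h of LPS and did not pass. At 1 h of TNF Slfn2 was the only member called, at 1.89 (SE 0.20, adjusted p = 0.000631), and the background was 0.902%. From 3 to 8 h of LPS 32 of 35 rose further, with 26.6% of all tested genes as background, and the median change was 1.46. The largest further rises were 4.96 for Ifi44, 4.52 for Ms4a4c, 3.62 for Slfn1 and 2.89 for Isg20. Rsad2, Rnf213 and Dtx3l did not pass, at 0.68 (adjusted p = 0.0668), 0.52 (adjusted p = 0.189) and 0.41 (adjusted p = 0.136). With library totals 23 of 35 passed and the share of higher among all calls went from 51.8% to 23.6%. In wild-type cells the 3 h LPS level was a median of 38.9% of the 8 h level, from 3.70% for Ifi44 to 87.7% for Dtx3l. In RelA-TA-KI cells it was a median of 34.8%, from 2.84% for Ifi44 to 70.7% for Rsad2.

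At 3 and 8 h the TNF response was smaller than the LPS response in all 35 members. Most members were also called later with TNF than with LPS, but Slfn2 was called at 0.5 h with both. At 3 h of TNF 16 of 35 members were called higher, with 7.6% of all tested genes as background, and 10 of the 16 rose by 2-fold or more. The 16 were Isg15, Mx1, Mx2, Rsad2, Cmpk2, Samd9l, Parp9, Parp14, Dtx3l, Daxx, Slfn2, Slfn5, Slfn8, Tor3a, Rtp4 and Lgals3bp. Mx2 had the largest change, 2.66 (SE 0.72, adjusted p = 0.0334), from 8 and 5 counts in the unstimulated libraries to 48 and 20. Trim21 and Xaf1 had changes of 0.94 (adjusted p = 0.103) and 1.04 (adjusted p = 0.0563). With library totals the share of higher among all calls at 3 h of TNF went from 56.4% to 31.8%, and 13 members were called. From 3 to 8 h of TNF all 35 rose, by a median of 2.61, beside 8.71% of all tested genes. The 8 h TNF level was a median of 26.0% of the 8 h LPS level in wild-type cells, from 4.97% for Ifi44 to 60.5% for Trim34a. In RelA-TA-KI cells the median was 21.5%, from 3.84% for Ms4a4c to 56.0% for Trim34a.

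Compared at matched times, LPS gave higher levels than TNF for 3 members at 1 h (Isg15, Rsad2 and Cmpk2), beside 0.92% of all tested genes. At 3 h it gave higher levels for all 35, with a median difference of 3.15 and a background of 16.9%, and at 8 h for all 35, with a median of 2.06 and a background of 30.0%. The largest differences at 3 h were 6.91 (SE 0.29, adjusted p = 1.49e-08) for Cmpk2 and 6.73 (SE 0.36, adjusted p = 1.65e-07) for Rsad2, and the smallest was 1.15 (SE 0.10, adjusted p = 8.15e-07) for Lgals3bp. At 8 h Ms4a4c at 4.48 (SE 0.24, adjusted p = 3.52e-08) and Ifi44 at 4.31 (SE 0.24, adjusted p = 3.52e-08) differed most and Trim34a at 0.78 (SE 0.13, adjusted p = 0.00014) least. At 0.5 h no member passed in edgeR, and 1 of 35 had an unadjusted p under 0.05. With library totals the share of higher among all calls went from 54.1% to 16.6% at 3 h and from 51.3% to 17.4% at 8 h, and 35 and 33 members were called. At 8 h Trim34a then stood at 0.0754 (adjusted p = 0.631) and Rnf213 at 0.70 (adjusted p = 0.0677, from 1.40), and both calls were lost.

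RNA levels of 14 genes of the interferon pathway were read, among them the inhibitors Socs1, Socs3, Ptpn6 and Irf2. Ifnb1, which encodes interferon beta, stood at 0.124, 0.302, 93.1, 27.9 and 17.8 CPM in wild-type and 0, 0.972, 137, 189 and 28.4 CPM in RelA-TA-KI cells at 0, 0.5, 1, 3 and 8 h of LPS, and at 0.417 CPM or lower in every TNF library. Its LPS values were highest at 1 h in wild-type cells and at 3 h in RelA-TA-KI cells. Of the 14 genes 12 were called higher at 3 h of LPS, 13 at 8 h of LPS and 9 at 8 h of TNF. The background was 24.8%, 33.8% and 17.1% of all tested genes. These counts include the inhibitors and do not measure signalling. Irf7, a factor that amplifies interferon genes, rose by 5.41 (SE 0.24, adjusted p = 4.79e-09) at 3 h of LPS and 4.99 (SE 0.24, adjusted p = 2.65e-08) at 8 h of TNF. Stat2, which joins Irf9 in ISGF3, rose by 3.00 at 8 h of TNF, and Irf9 was called higher as well. Ifnb1 at 8 h of TNF did not pass, at 1.58 (SE 3.29, adjusted p = 0.766). The 13 IFIT and OAS genes, the families most like these members, were all called higher at 3 and 8 h of LPS and at 8 h of TNF, with median changes of 5.02, 6.79 and 4.41. No test compared those families with the members.

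Over the 9 genotype pairs, 13 of 35 members were called higher in RelA-TA-KI cells and none lower, beside 10.3% of all tested genes called higher and 9.46% called lower. The differences were small next to the responses, with a median over the 35 of 0.19 and of -0.0047 over all tested genes. In the ISG15 system Isg15 was higher by 0.52 (SE 0.11, adjusted p = 0.0049) and Usp18 by 0.49 (SE 0.14, adjusted p = 0.0269). Among the effectors Rsad2 was higher by 0.60 (SE 0.14, adjusted p = 0.0114), Cmpk2 by 0.48 (SE 0.12, adjusted p = 0.015), Ifitm3 by 0.45 (SE 0.05, adjusted p = 7.17e-05) and Ifi44 by 0.85 (SE 0.18, adjusted p = 0.00611). Ifi44 was under 2 CPM in all unstimulated, 0.5 h and 1 h libraries. The other 7 were Slfn8 at 0.53, Rtp4 at 0.38, Sp100 at 0.26, Lgals3bp at 0.26, Slfn5 at 0.24, Tdrd7 at 0.19 and Pml at 0.19. None of the 4 PARP and DTX3L genes passed. In edgeR 20 of the 35 members had an unadjusted p under 0.05, beside 3693 of all 11308 tested genes, and no member passed as lower. DESeq2 called 1 lower, Ms4a4c, whose value in edgeR was -0.41 (SE 0.16, adjusted p = 0.0937).

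Leaving out each of the 9 pairs in turn, 10 of the 13 stayed called each time. Usp18 was lost without the 3 h or the 8 h LPS pair, Pml in 7 of 9 and Rtp4 in 8 of 9 such fits. With library totals 7 of the 13 stayed called (Isg15, Rsad2, Ifitm3, Ifi44, Sp100, Slfn8 and Lgals3bp), Ms4a4c and Slfn2 were called lower, and the share of higher among all calls went from 52.1% to 27.9%. Of the 14 pathway genes Ifnb1, Irf7 and Irf9 were called higher in RelA-TA-KI cells over the 9 pairs and Irf3 lower, and 11 of the 13 IFIT and OAS genes were called higher. Ifnb1 stood at 0.972 CPM or lower in the unstimulated, 0.5 h LPS and all TNF libraries, so its call rests on the later LPS pairs. Split by stimulus in edgeR, Ifnb1, Irf7 and Irf9 did not pass over LPS (adjusted p = 0.08, 0.0648 and 0.149). Over TNF they did not pass either (adjusted p = 0.739, 0.348 and 0.124). In edgeR Irf1 and Socs3 did not pass over the 9 pairs, at -1.46 (adjusted p = 0.12) and -1.12 (adjusted p = 0.266), but their pairs differed with time. At 1 h of LPS Irf1 stood at 536 CPM in wild-type and 36.6 in RelA-TA-KI cells, and Socs3 at 518 and 78.6. At 8 h of LPS Irf1 stood at 1106 and 1131 CPM and Socs3 at 736 and 1378. Markers of other cells moved with genotype as well. The summed level of 8 neutrophil markers was 170 to 348 CPM in wild-type and 81.4 to 243 CPM in RelA-TA-KI libraries, lower in all 9 pairs. That of 4 stromal markers was 97.8 to 189 CPM in wild-type and 13.7 to 70.9 CPM in RelA-TA-KI libraries, also lower in all 9. Col1a1 and Col1a2 made up nearly all of the stromal sum. Dcn was lower in RelA-TA-KI cells in most pairs, and Col3a1, at 1.77 CPM or lower, was higher in most. The 8 macrophage markers summed to 9360 to 14700 CPM in wild-type and 9020 to 15700 CPM in RelA-TA-KI libraries, lower in 8 of 9 pairs. Lyz2 was the largest part of that sum, and the markers did not move together. Lyz2 and Csf1r were lower in RelA-TA-KI cells in every pair, whereas Cd68, Itgam and Fcgr1 were higher in every pair. The 5 plasmacytoid dendritic cell markers summed to 63.6 to 229 CPM in wild-type and 74.0 to 409 CPM in RelA-TA-KI libraries, higher in all 9, and the other markers than Tcf4 reached at most 5.32 CPM (Pacsin1). The part of these cells in the genotype differences was not tested.

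**Figure D5:**
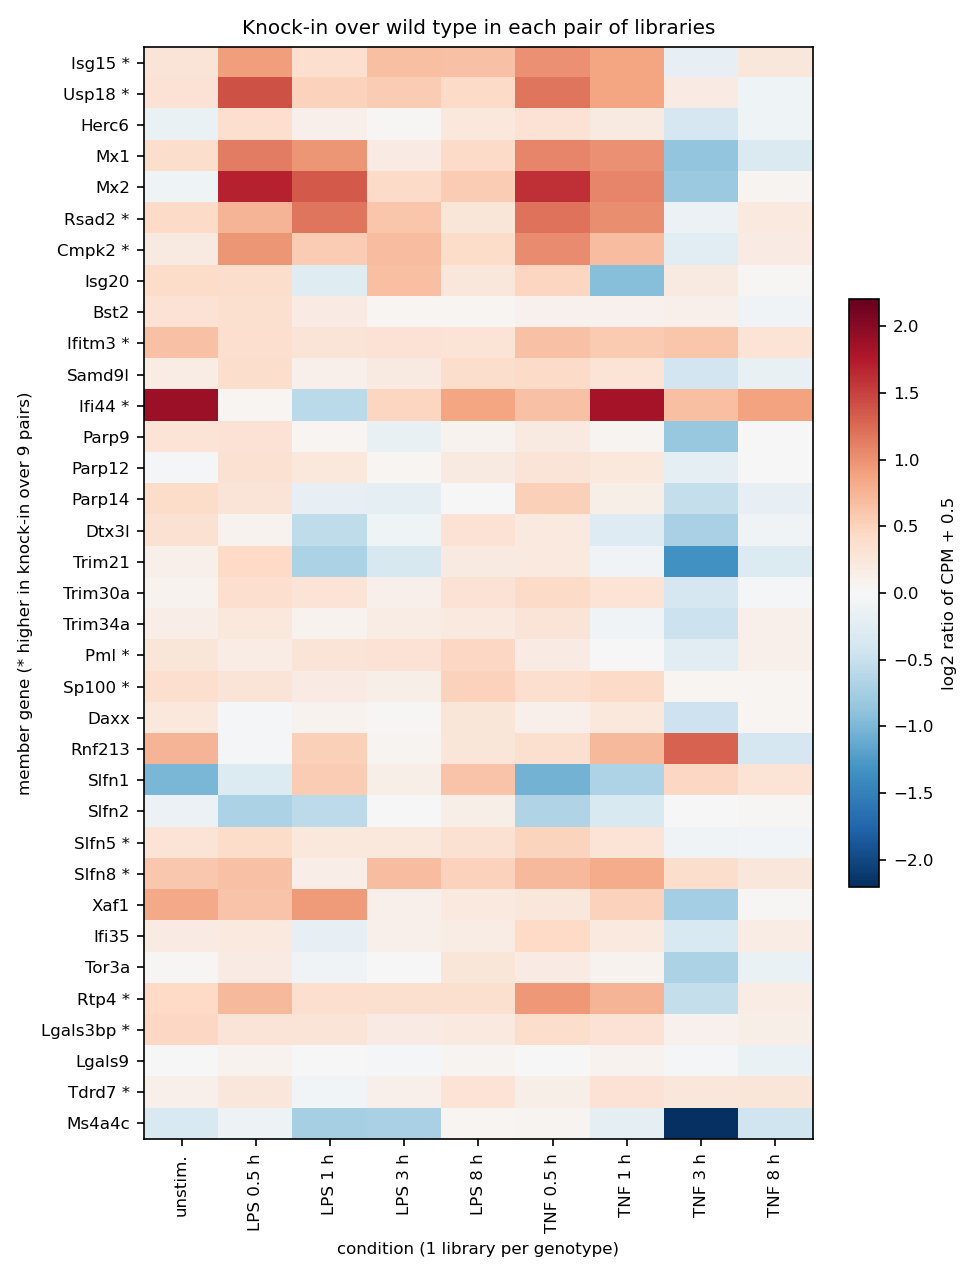
Log2 ratio of RelA-TA-KI over wild-type CPM (0.5 CPM added to each) for the 35 members in each of the 9 pairs of libraries, red for higher and blue for lower in RelA-TA-KI cells; asterisks mark the 13 members called over the 9 pairs. Most cells are red in unstimulated, LPS and early TNF pairs, and 24 of 35 are blue at 3 h of TNF.

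By pair, with no test, the number of members higher in RelA-TA-KI cells was 29 of 35 when unstimulated and 30, 25, 28 and 34 at 0.5, 1, 3 and 8 h of LPS. With TNF it was 33, 28, 11 and 19 at the same times. The share of all tested genes that were higher stayed between 47.6% and 50.7% in the 9 pairs. With library totals the number of members higher was 22 at 3 h and 26 at 8 h of LPS, and 8 at 3 h and 13 at 8 h of TNF. The 3 h TNF pair was the one in which most members, 24, were lower, with a median of -0.23. Its RelA-TA-KI library had the lowest total of the 18, 4663650 counts, beside 4739922 in the wild-type library at 8 h of LPS. A part of the library total in the direction of this pair was not tested. Without the 3 h TNF pair 18 members were called higher over the remaining 8, adding Mx2, Parp12, Samd9l, Trim30a and Xaf1 to the 13. Of all 11274 genes tested in that fit 1086 were called higher. This pair was singled out because most members were lower in it, and each added gene was lower in it as well. The larger count therefore follows from that choice and is no separate support.

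Split by stimulus, 7 members were called higher in RelA-TA-KI cells over the 4 LPS times (Isg15, Cmpk2, Ifitm3, Ifi44, Pml, Slfn8 and Lgals3bp), beside 5.47% of all tested genes. Over the 4 TNF times 3 were (Ifitm3, Ifi44 and Slfn8), beside 2.41%. Ifi44 held 7 counts or fewer in each library at 0.5, 1 and 3 h of TNF. At 8 h of TNF it held 143 counts in wild-type and 243 in RelA-TA-KI cells, so its TNF call rests mainly on that pair. The DESeq2 test did not call Ifi44 over LPS (0.35, adjusted p = 0.842) or over TNF (1.62, adjusted p = 0.211). Slfn8 was higher by 0.53 (SE 0.11, adjusted p = 0.011) over LPS and by 0.51 (SE 0.11, adjusted p = 0.0224) over TNF. The LPS count was 3, 4, 0 and 2 without the pair at 0.5, 1, 3 and 8 h of LPS and 1 with library totals. The TNF count was 1 without the pair at 0.5 h or at 3 h of TNF, 5 without the 8 h LPS pair and 1 with library totals. The share of higher among all calls went from 54.8% to 39.6% over LPS and from 45.3% to 29.1% over TNF with library totals. The test of the difference between the LPS and TNF genotype effects called no member in edgeR, with 1 of 35 at an unadjusted p under 0.05, and no gene of all tested, so the effects are not shown to differ.

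In edgeR Slfn2 was the only member whose genotype effect was called different by phase, with the late phase at 3 and 8 h set against the early phase at 0.5 and 1 h, by 0.60 (SE 0.09, adjusted p = 0.014), beside 0.318% of all tested genes with a higher late effect. Its RelA-TA-KI over wild-type log2 ratio was -0.69 and -0.57 at 0.5 and 1 h of LPS and -0.66 and -0.34 at 0.5 and 1 h of TNF. At 3 and 8 h it was 0.02 and 0.12 with LPS and -0.01 and 0.03 with TNF. So the RelA-TA-KI libraries held less Slfn2 than the wild-type ones in all 4 early pairs and close to the same amount in the 4 late ones. The call was lost without the 0.5 h LPS pair (0.56, adjusted p = 0.0855), the 1 h LPS pair (0.61, adjusted p = 0.0727) or the 0.5 h TNF pair (0.58, adjusted p = 0.0855). Of the 35 members 30 had a negative late minus early value, the median being -0.22, and 14 had an unadjusted p under 0.05, Slfn2 among them. Over all 11308 tested genes 49.7% were positive, the median was -0.0011, and 1339 had an unadjusted p under 0.05. This comparison pools both stimuli. By pair the members' median ratio was 0.34, 0.18, 0.12 and 0.27 at 0.5, 1, 3 and 8 h of LPS. With TNF it was 0.37, 0.30, -0.23 and 0.03 at the same times, so the single 3 h TNF pair was the lowest. None of the members' negative values passed in edgeR with all pairs. Mx2 had the lowest value, -1.48 (SE 0.38, adjusted p = 0.164), and Rsad2 stood at -0.80 (SE 0.15, adjusted p = 0.0793). The DESeq2 test called 3 members lower in the late phase, Rsad2 at -0.80 (adjusted p = 0.00294), Mx2 at -1.64 (adjusted p = 0.0133) and Mx1 at -1.33 (adjusted p = 0.034). DESeq2 called 30 of all 11308 tested genes lower there. In edgeR Mx2 passed without the 3 h TNF pair, at -1.37 (adjusted p = 0.0392), and Rsad2 without the 3 h LPS pair, at -0.92 (adjusted p = 0.0255). Library totals shifted the median of all genes in this comparison by -0.10 and the share of higher among all calls from 80.0% to 65.5%.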

How the data were processed

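RNA was measured in 18 libraries, each grouped by the genotype, stimulus and time in its title. The authors deposited 1 table of whole-number gene counts, not normalized, with coordinates on mm10. The submitters' processing notes list cutadapt 1.12 (trimming), STAR (alignment), featureCounts 1.5.0 (counting) and DESeq2. Per the labels' protocols, a stranded poly(A) kit with 12 cycles of PCR was used, and single reads had 50 bases. For strand setting and annotation release, the sources used here give nothing. Of 45706 rows 24529 were 0 in every library and 563 lacked a symbol.

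Counts were fitted with edgeR 4.0.16 (R 4.3.3) on condition plus genotype, using TMM and robust quasi-likelihood. Genes passed filterByExpr at its count minimum of 10 and total minimum of 15. Ifi44 and Slfn1 held 10 counts or fewer in every library but those at 3 and 8 h of LPS and 8 h of TNF. There were 8 residual degrees of freedom, or 6 with genotype split by stimulus or phase. The common coefficient of variation was 0.111. Ratios added 0.5 CPM. Alternatives were DESeq2 1.42.0 size factors and test, limma-voom (limma 3.58.1), library totals, no filter, a filter of 1 CPM in 9 libraries, a 2-fold minimum, and each of 9 genotype pairs left out. The fits were tested on simulated data. Any member may be named. Values in every library are given for the 2 members per role with the highest level per length, those called between genotypes, and those with the largest and smallest change. The members and lists were chosen with earlier results of these data known. One gene of the interferon pathway list is not reported here.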

Additional observations from a re-analysis of the deposited data

Results flagged for a closer look

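The genotype effect on Slfn2 differed between late and early times by 0.60 on the log2 scale (RelA-TA-KI minus wild-type, 3 and 8 h minus 0.5 and 1 h), by an interaction term in edgeR with an adjusted p of 0.014. The ratio was below 0 in 4 of 4 early pairs. Leaving out the 0.5 h LPS, the 1 h LPS or the 0.5 h TNF pair gave adjusted p values of 0.0855, 0.0727 and 0.0855. Each group holds 1 library, so no group was large enough for a check of single libraries within a group.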

How the results depend on the processing

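All 35 members were called higher at 3 and 8 h of LPS and at 8 h of TNF under each alternative run for those comparisons, except that a 2-fold minimum left 34 at 8 h of TNF, without Lgals9. Each genotype fit has condition as a term and so compares genotypes within condition; the labels give no replicate numbers for a further block. Without a filter the 0.5 h TNF count was 0. A 2-fold minimum left 10 members higher and 0 lower at 3 h of TNF. LPS against TNF at 1 h gave 6 higher with the DESeq2 test, and 2 to 5 higher and 0 to 1 lower with a pair left out. Over the 9 pairs the genotype count higher was 7 with library totals and 10 to 18 with a pair left out. The count lower was 1 with the DESeq2 test, 2 with library totals and 0 to 1 with a pair left out. Over LPS times the count higher was 1 with library totals and 0 to 8 with a pair left out, and over TNF times 1 and 1 to 5. The late minus early count was 0 to 1 higher and 0 to 1 lower with a pair left out, and 3 lower with the DESeq2 test. The change of Dtx3l from 3 to 8 h of LPS, 0.41, was -0.0178 with library totals. Among values of single genes under an alternative, 4513 kept direction and side of the threshold, 134 lost the call, 23 gained it and 1 changed sign. The cause of these changes was not tested. With 1 library per genotype and condition, differences at a single time have no replicate check, and members at a few counts per library in unstimulated cells, such as Ifi44 and Slfn1, have uncertain fold changes.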
